A study of Mus musculus with 6 samples.

Results

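The 10 genes described here build, bind or regulate the microtubules of young neurons: the stathmins Stmn1, Stmn2, Stmn3 and Stmn4, the microtubule-associated proteins Mapt (tau), Map2 and Map1b, doublecortin (Dcx), the neuronal beta tubulin Tubb3, and the growth cone protein Gap43. They were picked from the deposited table by gene symbol, 1 entry each, out of 25996 genes. The set was put together with results of the comparison between the 2 groups known, so the differences between groups in these 10 genes are given as a description, with standard errors and without p-values. RNA was sequenced from cultured mouse neural stem cells kept in proliferation conditions, which all 6 libraries shared. In 3 libraries the cells had a control hairpin and are labelled wild type (shControl), and in 3 they had a hairpin against Mina53 and are labelled Mina53 knockdown (shMina53). Mina53 is the product of Riox2, a JmjC-domain oxygenase gene. Strain, age, and the vector or promoter of the hairpin are not given in the sources used here, and neither is the origin of the replicates (separate cultures or not). The p-values below therefore reflect only how far these 6 libraries spread, in which technical differences may play a part.

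Microtubules are polymers of alpha and beta tubulin that grow and shrink at their ends. Stathmins bind free tubulin dimers and promote shrinkage. Tau, Map2, Map1b and doublecortin bind the polymer and stabilise or bundle it, and in neurons tau is found mainly in axons and Map2 mainly in dendrites. Stmn1, the founding member, is cytosolic and abundant in dividing cells, where it takes part in spindle assembly, whereas Stmn2, Stmn3 and Stmn4 are membrane-anchored neural paralogs. Several of these genes, Mapt, Gap43 and Stmn4 among them, are also transcribed in the oligodendrocyte lineage, so in a neural stem cell culture their RNA need not come from neurons.

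Levels are scaled counts, that is, the deposited read count of a gene divided by 1 factor per library. Recovered totals were 16024363 to 16811085 reads in shControl and 13753857 to 16017753 in shMina53. Differences are on the log2(scaled count + 1) scale, shMina53 minus shControl, and a gene is called where limma's adjusted p over all 21500 genes tested is under 0.05. Riox2 stood at 290.4, 333 and 307 scaled counts in the control libraries and 121, 125 and 121 in the knockdown, so the targeted gene follows the labels; it shares 1185 exon bases with Crybg3 on the other strand, and strand-specific counting is not stated. All 14 neural stem and progenitor markers examined were measured, with a summed level of 148036 to 166449 per library; 4 of them were called lower (Sox2, Vim, Hes1 and Hes5) and 1 higher (Slc1a3) in shMina53 by limma, edgeR and DESeq2. Of 7 microglial markers 2 were in the table, summing to 1.89 to 5.80 scaled counts. One library, shControl 3, stood apart: over 11377 protein-coding genes, its log2 deviation fell by 0.21 per doubling of exon length, against slopes of -0.04 to 0.10 in the other 5. The number of genes called lower was 961, or 4.47% of those tested, and 815, or 3.79%, were called higher. The number lower was 332 without shControl 2, 347 without shMina53 2 and 270 without shMina53 3, and the number higher was 1380 without shControl 1, 317 without shControl 2, 391 without shMina53 1, 212 without shMina53 2 and 223 without shMina53 3. edgeR and DESeq2 on the recovered reads called 11.9% of 15082 and 15.3% of the 13900 genes to which each gave an adjusted p.

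Upstream sequence from RefSeq (GRCm38.p6) was matched for 5 of the 10 genes, and 4 are shown because they belong to genes that stood on both sides of the comparison: Stmn3, Tubb3 and Dcx were lower in every shMina53 library and Map2 was higher. Each is the 250 bases before a start annotated in RefSeq, 5′ to 3′ on the gene's strand, and capitals mark matches to any of 5 motifs searched on both strands. The gene positions given below are from GENCODE, and their starts can differ from these. By those positions the Tubb3, Dcx and Map2 windows run into the gene, and the Stmn3 window does not. These were the TATA box (TATAAA), the GC box (GGGCGG), an E-box (CAGCTG), and the left (TCAGCACC) and right (GGACAGC) parts of RE1, the element bound by the neuronal gene repressor REST.
Stmn3 promoter (chr2:181314501-181314750, minus strand): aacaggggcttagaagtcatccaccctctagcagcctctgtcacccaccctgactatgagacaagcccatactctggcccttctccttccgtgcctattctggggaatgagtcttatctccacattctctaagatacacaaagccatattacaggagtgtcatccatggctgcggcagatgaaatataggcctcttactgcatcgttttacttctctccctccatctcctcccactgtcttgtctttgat
Tubb3 promoter (chr8:123411303-123411552, plus strand): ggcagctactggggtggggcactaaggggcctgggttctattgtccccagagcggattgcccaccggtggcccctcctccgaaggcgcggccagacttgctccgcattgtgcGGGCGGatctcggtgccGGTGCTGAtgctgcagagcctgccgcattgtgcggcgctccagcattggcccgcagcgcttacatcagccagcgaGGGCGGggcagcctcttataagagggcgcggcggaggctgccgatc
Dcx promoter (chrX:143933220-143933469, minus strand): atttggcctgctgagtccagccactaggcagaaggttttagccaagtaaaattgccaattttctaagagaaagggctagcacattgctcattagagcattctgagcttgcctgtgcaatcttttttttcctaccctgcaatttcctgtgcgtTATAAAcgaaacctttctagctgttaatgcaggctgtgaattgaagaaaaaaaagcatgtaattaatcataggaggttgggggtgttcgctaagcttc
Map2 promoter (chr1:66175079-66175328, plus strand): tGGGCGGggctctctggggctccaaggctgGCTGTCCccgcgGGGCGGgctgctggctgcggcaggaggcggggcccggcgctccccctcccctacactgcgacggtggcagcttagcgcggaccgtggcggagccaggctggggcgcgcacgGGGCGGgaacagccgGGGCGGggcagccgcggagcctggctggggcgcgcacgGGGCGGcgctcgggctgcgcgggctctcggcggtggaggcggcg
These windows had little in common. The Stmn3 window held none of the 5 motifs and was 48.8% G or C. The Tubb3 window (68.0% G or C) held 2 GC boxes and, 121 bases before the RefSeq start, the left RE1 part on the reverse strand. By its GENCODE position that RE1 part lies inside the gene. The Dcx window (41.6% G or C) held a TATA box 98 bases before the start. The Map2 window (81.2% G or C) held 5 GC boxes and the right RE1 part on the reverse strand, 220 bases before the start. Among 32851 RefSeq windows of the same length, 12.37% held the TATA box, 32.74% the GC box, 13.0% the E-box, 1.32% the left RE1 part and 5.28% the right one, with a median of 52.4% G or C. Matched letters are a description of these windows and not evidence of binding.

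Most of the 10 genes were lower in shMina53. In 7 of them, Stmn1, Stmn3, Stmn4, Mapt, Dcx, Tubb3 and Gap43, every shMina53 library was below every shControl library, and in 1, Map2, every shMina53 library was above. Among all genes tested the groups did not overlap in 14.1% (lower) and 14.9% (higher). By limma's adjusted p, 6 were called lower (all but Dcx of those 7), 1 higher and 3 not called, which is a description since the set was chosen on this comparison. The median log2 difference of the 10 was -0.58, against 0.02 over all genes tested. It was -0.67 without shControl 3, against -0.003 over all genes, and -0.49 with the length trend removed, against 0.08. The calls of Stmn1, Stmn3, Stmn4 and Mapt held in all 6 fits without 1 library, and that of Gap43 in all but the one without shMina53 3. Tubb3 kept its call in 1 of the 6, the fit without shControl 3, and Map2 in 2, those without shControl 1 and without shControl 3. In these fits 4 to 7 members were called lower. With the plain limma variance model 1 member, Stmn4, was called, lower. With the length trend removed 6 were called lower, with Dcx in place of Tubb3, and Map2 was not called. In bulk RNA, fewer cells of a type and less RNA per cell cannot be told apart.

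**Figure D1:**
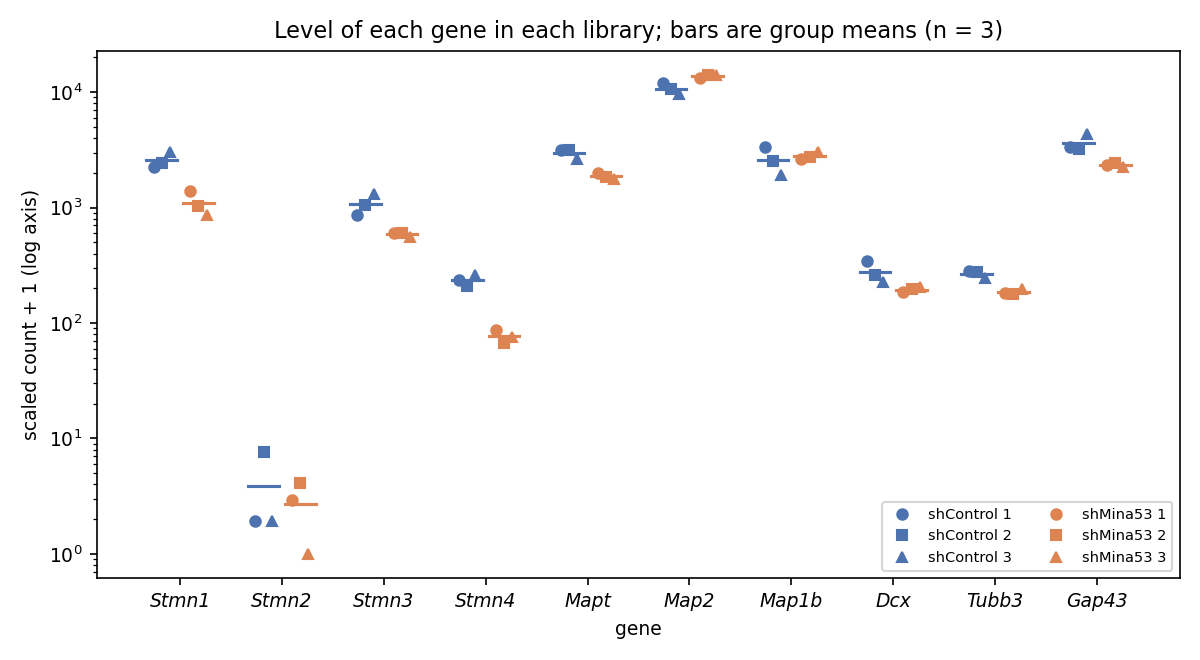
Scaled count plus 1 (log axis) of each of the 10 genes in each library. Symbols are libraries by replicate number, blue for shControl and orange for shMina53, and bars are group means (n = 3); the 2 groups are separated in 8 genes and overlap in Stmn2 and Map1b.

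Among the stathmins, 3 of the 4 paralogs were lower in shMina53 and the remaining one was close to the limit of detection in both groups. Stmn4 (ENSMUSG00000022044; chromosome 14, 66344296 to 66361680, plus strand), a membrane-anchored neural stathmin, stood at 237, 209 and 257 scaled counts in the control libraries and 86.0, 66.4 and 74.5 in the knockdown. The lowest control value was thus well above the highest knockdown value. Its mean went from 234 ± 24.4 to 75.7 ± 9.85 (SD, n = 3), 32.3% of the control, a log2 difference of -1.62 (SE 0.18), which was the lowest of the 10 and ranged from -1.72 to -1.53 when 1 library was left out.

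Stmn1 (ENSMUSG00000028832; chromosome 4, 134468320 to 134473843, plus strand), the cytosolic stathmin, stood at 2233, 2451 and 3020.2 scaled counts in the control libraries and 1381, 1040.0 and 869 in the knockdown. Its groups did not overlap, but it was the gene that varied most among the shMina53 libraries, with a coefficient of variation of 23.8%, against 3.22% to 13.0% for the other members except Stmn2. The mean was 2568 ± 407 in shControl and 1096 ± 261 in shMina53, 42.7% of the control, with a log2 difference of -1.24 (SE 0.16; -1.42 to -1.09 without 1 library).

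Stmn3 (ENSMUSG00000027581; chromosome 2, 181306459 to 181314500, minus strand), a further membrane-anchored paralog, stood at 867, 1054 and 1301 scaled counts in the control libraries and 605, 606 and 550.1 in the knockdown. Here the spread lay in the controls, with a coefficient of variation of 20.3%, while the shMina53 libraries agreed to 5.47%. Its log2 difference was -0.85 (SE 0.14), -0.70 without shControl 3 and -0.53 with the length trend removed.

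Stmn2 (ENSMUSG00000027500; chromosome 3, 8509360 to 8561606, plus strand), also known as SCG10 and a classical target of REST, had 1, 7 and 1 reads in shControl and 2, 3 and 0 in shMina53. After scaling to the library totals, the ratio of summed reads was 0.610 (95% exact counting interval 0.161 to 2.03). So at this depth neither a halving nor a doubling could be told from no difference. The interval covers counting error only. This gene, characteristic of differentiated neurons, was therefore nearly silent in cultures that held 869 or more scaled counts of Stmn1.

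Per kilobase of merged exon, the 4 stathmins summed to 2048, 2313 and 2851 scaled counts in the control libraries and 1296, 1109.9 and 975 in the knockdown, with no overlap. Within this pool Stmn1 made up 55.7% ± 0.925 in shControl and 50.2% ± 4.70 in shMina53, Stmn3 39.2% ± 1.68 and 46.3% ± 4.56, and Stmn4 5.15% ± 0.762 and 3.53% ± 0.437 (SD, n = 3). The Stmn4 share was lower in all 3 shMina53 libraries (3.46%, 3.12% and 3.99%) than in any control (6.03%, 4.71% and 4.71%), while the shares of Stmn1 and Stmn3 overlapped between the groups.

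The microtubule-associated proteins did not move together. Mapt (ENSMUSG00000018411; chromosome 11, 104231390 to 104332090, plus strand), which encodes tau, stood at 3131, 3123 and 2627 scaled counts in the control libraries and 1994, 1855 and 1782 in the knockdown. The groups were well apart. The mean in shMina53 was 63.4% of the control and the log2 difference -0.65 (SE 0.11), and it was -0.74 without shControl 3 and -0.72 with the length trend removed.

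Map2 (ENSMUSG00000015222; chromosome 1, 66175273 to 66442583, plus strand), the dendritic counterpart of tau, was the only one of the 10 with all shMina53 libraries on the upper side. It stood at 11976, 10641 and 9599 scaled counts in the control libraries and 13344, 14165 and 14059 in the knockdown. The mean was 129% of the control, with a log2 difference of 0.37 (SE 0.11). It was 0.30 without shControl 3 and 0.16 (SE 0.08) with the length trend removed, so the difference shrank by most of its size in that step. Map2 has the longest merged exons of the 10, at 16449 bases.

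Map1b (ENSMUSG00000052727; chromosome 13, 99421446 to 99516540, minus strand), a microtubule-associated protein of growing axons, stood at 3348, 2547 and 1930.5 scaled counts in the control libraries and 2652, 2759 and 3049.8 in the knockdown. All 3 knockdown values lay within the range of the controls, whose coefficient of variation was 27.3% against 7.30%. Its log2 difference was 0.15 (SE 0.16) with all libraries, -0.05 without shControl 3 and -0.06 with the length trend removed, so its sign depended on that library and on the length step.

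The ratio of Map2 to tau differed between the groups more than either gene alone, which follows from their opposite directions and is no separate result. Per kilobase of merged exon, Map2 exceeded Mapt by a ratio of 1.75, 1.56 and 1.67 in the shControl libraries and of 3.06, 3.50 and 3.61 in the shMina53 libraries (mean 1.66 ± 0.096 and 3.39 ± 0.289, SD, n = 3). These ratios are of whole genes, and both genes make several isoforms that gene counts do not separate. They were not computed with the length trend removed, a step in which the log2 difference of Map2 was 0.16.

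Doublecortin and the neuronal tubulin, both widely used to mark newborn neurons, were present at low levels. Dcx (ENSMUSG00000031285; chromosome X, 143855842 to 143933311, minus strand) stood at 344, 261 and 225 scaled counts in the control libraries and 184, 195 and 202 in the knockdown. The groups were adjacent, with the lowest control 1.12 times the highest knockdown library. The log2 difference was -0.49 (SE 0.16), not called in the fit of all libraries, and it was -0.63 (SE 0.15) without shControl 3 and -0.66 (SE 0.13) with the length trend removed.

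Tubb3 (ENSMUSG00000062380; chromosome 8, 123411424 to 123422015, plus strand), the beta-III tubulin gene, stood at 283, 274 and 244 scaled counts in the control libraries and 179.8, 179 and 194 in the knockdown. It was thus lower in each shMina53 library, at 69.0% of the control on average, with a log2 difference of -0.53 (SE 0.14) and of -0.31 (SE 0.15) with the length trend removed. The length step assumes the trend of all genes, which Tubb3 did not follow. Its deviations within groups correlated at 0.925 with the length slopes of the libraries, whereas the other short members, Stmn1, Stmn3, Stmn4 and Gap43, had correlations of -0.975 to -0.464. Without 1 library the difference ran from -0.59 to -0.49.

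Gap43 (ENSMUSG00000047261; chromosome 16, 42248442 to 42340651, minus strand), a membrane protein of growth cones that regulates the actin skeleton, had the highest level per kilobase of the 10. It stood at 3343, 3244 and 4340.0 scaled counts in the control libraries and 2346, 2428 and 2249 in the knockdown. The mean of the knockdown was 64.3% of the control. Its log2 difference of -0.63 (SE 0.12) was -0.49 without shControl 3 and -0.36 (SE 0.09) with the length trend removed.

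**Figure D2:**
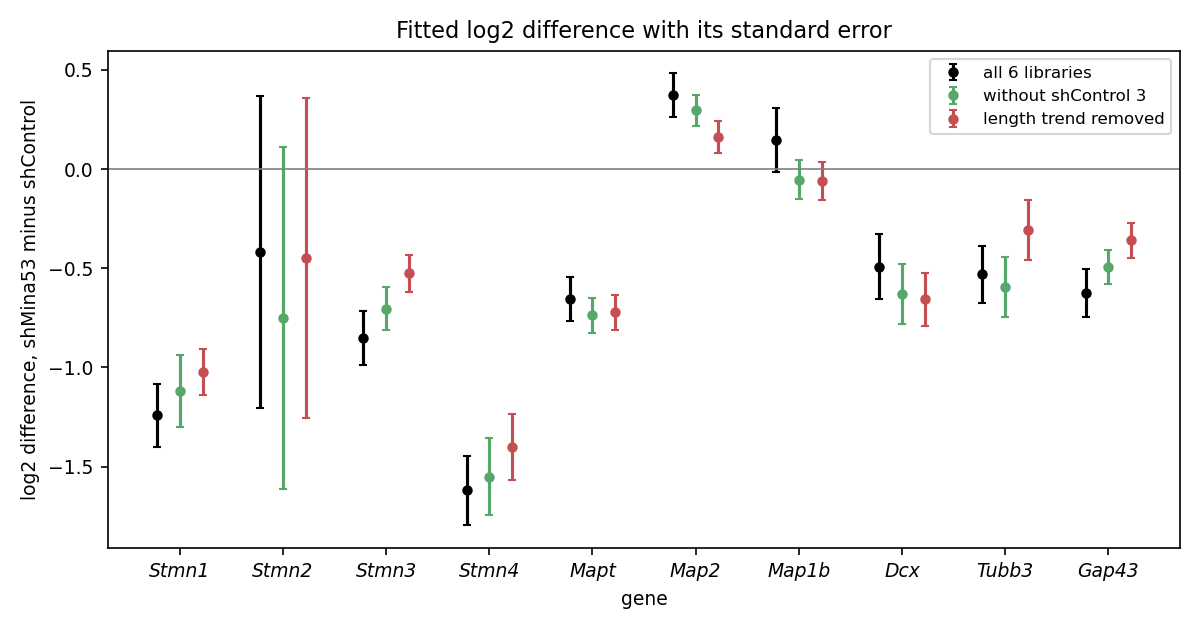
Log2 difference (shMina53 minus shControl) of each of the 10 genes with its standard error, from all 6 libraries (black), without shControl 3 (green) and with the trend on exon length removed (red). Stmn4, Stmn1 and Mapt stayed well below 0 in each fit, Map2 shrank from 0.37 to 0.16, and Map1b lay near 0.

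The order of levels per kilobase of merged exon changed between the groups. In shControl it ran from Gap43 (2391 ± 398) through Stmn1 (1336 ± 212), Stmn3 (945 ± 192), Map2 (653 ± 72.4), Mapt (393 ± 38.4), Map1b (165 ± 44.9), Tubb3 (143 ± 10.8), Stmn4 (122 ± 12.7) and Dcx (21.9 ± 4.82) to Stmn2 (0.509 ± 0.591; all SD, n = 3). The ranges of Map1b, Tubb3 and Stmn4 overlapped, whereas those of the higher genes did not. In shMina53, Map2 (842 ± 27.1) came next to Gap43 (1537 ± 58.8), ahead of Stmn1 (570.4 ± 136) and Stmn3 (517 ± 28.3), whose ranges now overlapped. Merged exons overstate the length of any 1 transcript, most of all for genes with long alternative ends.

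Among libraries of the same group, the 10 genes did not vary as 1 unit. The short transcripts Stmn3, Stmn1 and Gap43 were above their group mean in shControl 3, by 0.30, 0.25 and 0.27 on the log2 scale. In the same library the long transcripts Map1b, Dcx and Map2 were below it, with deviations of -0.40, -0.27 and -0.16. In shControl 1 the pattern was the opposite, with Map1b at 0.40, Dcx at 0.34 and Stmn3 at -0.29. Tubb3 was the exception to length: with 1868 bases of merged exon it deviated like the long genes (-0.125 in shControl 3). Stmn1 and Stmn4 both stood highest in shMina53 1 among the shMina53 libraries (0.36 and 0.19). The part of the length trend in the differences between groups was not tested beyond the fit that removes it.

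**Figure D3:**
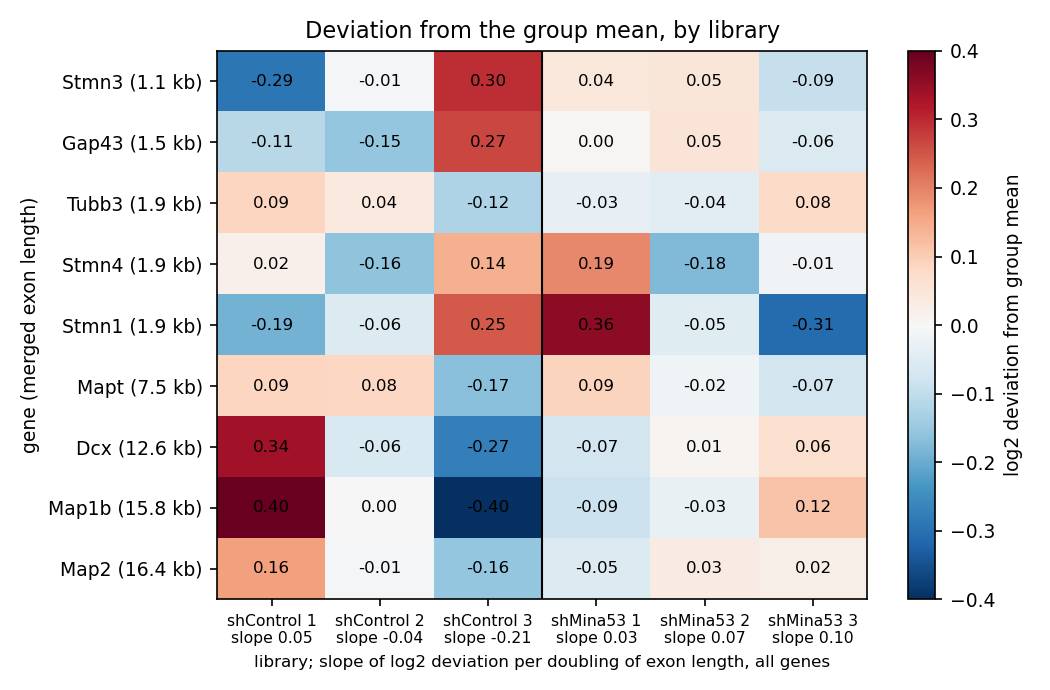
Log2 deviation of 9 genes (all but Stmn2, which has few reads) from the mean of their group in each library, with genes ordered by merged exon length and the slope of all genes on length under each library. In shControl 3 the short stathmin and Gap43 transcripts were high and the long Map1b, Dcx and Map2 transcripts low.

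Markers of several cell types differed between the groups alongside these genes, the 4 lower progenitor markers given above among them. Of 12 oligodendrocyte lineage markers tested, 6 were called lower and 0 higher (limma; 0 higher also at an unadjusted p under 0.05 and by edgeR and DESeq2), with a median log2 difference of -0.67, although their summed level overlapped between the groups (49649 to 51980 in shControl, 46364 to 55799 in shMina53), and Mag had a mean under 1. Of 9 mature neuron markers tested, 2 were lower (Syp and Gad1) and 1 higher (Camk2a), and the sum was 2168 to 2385 in shControl and 1650.2 to 1873 in shMina53, without overlap. Slc17a6 and Slc32a1 of that list were not in the table. Of 8 astrocyte markers 3 were higher and 0 lower (limma; 0 lower also at an unadjusted p under 0.05 and by edgeR and DESeq2), and their sum was 32612 to 35346 and 37678 to 41662. Of 8 endothelial and mural markers 7 were in the table and 5 were tested, with 0 called (limma; 1 higher at an unadjusted p under 0.05, 0 by edgeR and DESeq2). Their sum was small and did not overlap, at 94.9 to 103.7 in shControl and 123 to 153 in shMina53. With the plain limma variance model 1 oligodendrocyte lineage marker was called lower, and no other marker of these lists was called. Marker counts without 1 library are not given here. The part of these cell types in the lower stathmin, tau and Gap43 levels was not tested.

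The wider microtubule and outgrowth machinery was examined through 8 gene lists. Like the 10 genes, these lists were chosen with earlier results of these data known, so their counts and p-values are a description. They held 168 other genes, of which all but Neurog1, 167, were tested. Of these, 16 were called lower (9.6%) and 3 higher (1.8%), beside 4.47% and 3.79% of all genes, and 148 were not called. The comparison depends on the genes tested: with a mean of at least 10, limma called 985 of 14872 genes lower, 16 of them list genes. edgeR called 16 list genes lower and 4 higher, and DESeq2 21 and 3, beside 11.9% and 15.3% of all genes in either direction. No excess over all genes is read from these counts. The median log2 difference of the 167 genes was -0.06 by limma. The count of lower genes depended on the libraries: it was 27 without shControl 3, 5 without shControl 2, 6 without shMina53 2 and 3 without shMina53 3. The count of higher genes was 7 without shControl 1 and 1 without shControl 2, shMina53 2 or shMina53 3. So most genes of the machinery did not pass the test in either direction.

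Most of the tubulin genes themselves were not called. Of 13 alpha, beta and gamma tubulin genes 0 were called lower and 1 higher (limma; 2 lower at an unadjusted p under 0.05, 0 lower by edgeR and 1 by DESeq2), with a median of -0.18. Tuba4a, an alpha tubulin that lacks the usual terminal tyrosine in its genomic sequence, rose from 107 ± 11.7 to 201 ± 10.5 scaled counts (log2 difference 0.91, SE 0.16; adjusted p = 0.00311 by limma) and was called in all 6 fits without 1 library. The abundant neural tubulins Tubb2b (23066 ± 1131 and 20313 ± 981; adjusted p = 0.297 by limma) and Tuba1a (19335 ± 3381 and 18846 ± 965; adjusted p = 0.931 by limma), named here after their values were seen, were not called. Tubb5, named in the same way, was not called either (15520 ± 899 and 13852 ± 658, adjusted p = 0.364 by limma). For Tubb2b and Tubb5, however, every shMina53 library was below every shControl library, while Tuba1a overlapped between the groups.

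Of 27 structural microtubule-associated proteins, end-binding proteins and doublecortin kinases, 2 were called lower and 0 higher (limma; 3 higher at an unadjusted p under 0.05, 1 by edgeR, 0 by DESeq2), with a median of 0.05. Map1lc3a, a light chain better known as an autophagosome protein, fell from 769 ± 138 to 440.5 ± 121 scaled counts (-0.83, SE 0.20; adjusted p = 0.0258 by limma), but was not called without shControl 2, shControl 3 or shMina53 3 (adjusted p up to 0.196). Tppp, a tubulin polymerisation protein of oligodendrocytes, fell from 137 ± 16.5 to 85.6 ± 16.2 (-0.68, SE 0.20; adjusted p = 0.0401 by limma) and stayed called in 1 of the 6 fits without 1 library, the one without shControl 3 (adjusted p up to 0.15 in the others).

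Among 27 genes that fold, modify or sever tubulin, 4 were called lower and 0 higher (limma; 0 higher also at an unadjusted p under 0.05 and by edgeR and DESeq2), with a median of -0.09. Vash2, a vasohibin that removes the terminal tyrosine of alpha tubulin, fell from 207 ± 36.1 to 119 ± 22.4 (-0.80, SE 0.19; adjusted p = 0.0145 by limma; 0.0992 without shMina53 3). Its binding partner Svbp, named after its values were seen, fell from 411 ± 101 to 267 ± 10.5 (-0.59; adjusted p = 0.0278 by limma), but lost its call without shControl 2 and without each shMina53 library (up to 0.128), and with the length trend removed (0.189). The tubulin-folding genes Arl2 and Tbcb fell from 601 ± 69.3 to 417 ± 38.6 and from 1054 ± 164 to 742 ± 92.8. Arl2 lost its call without shControl 2 and without each shMina53 library (up to 0.117), and Tbcb was no longer called when shControl 2, shMina53 2 or shMina53 3 was left out (up to 0.165) or with the length trend removed (0.146).

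Among 20 kinases and phosphatases that act on tau, stathmins or doublecortin, 1 was called lower and 0 higher (limma; 6 lower and 2 higher at an unadjusted p under 0.05; 0 higher by edgeR and DESeq2), with a median of -0.09. Pak1, a kinase that phosphorylates Stmn1, fell from 584 ± 36.5 to 414 ± 39.5 scaled counts (-0.50, SE 0.12; adjusted p = 0.0198 by limma), but lost its call without shControl 2 and without each shMina53 library (up to 0.0912). Among 23 motor and lissencephaly genes 2 were lower and 0 higher (limma; 4 higher at an unadjusted p under 0.05, 0 by edgeR and DESeq2), with a median of -0.02. These were the paralogs Nde1 (963 ± 7.23 to 667 ± 64.1; adjusted p = 0.00879 by limma) and Ndel1 (706 ± 19.0 to 492 ± 16.4; adjusted p = 0.00926 by limma), which tether dynein to its regulator Lis1. Nde1 was not called without shControl 2 or shMina53 3 (up to 0.0679), nor was Ndel1 without shControl 2, shMina53 2 or shMina53 3 (up to 0.0657).

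The growth cone and axon outgrowth list had the most calls, with 5 of 25 lower and 2 higher and a median of -0.12; without 1 library, 2 to 7 were lower and 0 to 2 higher. Plppr1, a membrane protein of neurite outgrowth, fell from 492 ± 43.7 to 233 ± 4.79 scaled counts (-1.07, SE 0.13; adjusted p = 0.000208 by limma) and was called in all 6 fits without 1 library. Basp1, which like Gap43 is a membrane-bound growth cone protein, fell from 4353 ± 420 to 2871 ± 349 (-0.60; adjusted p = 0.00486 by limma; 0.0588 without shMina53 3), a size close to that of Gap43 above. Crmp1, a collapsin response mediator that binds tubulin, fell from 1393 ± 76.2 to 952 ± 65.8 (-0.55; adjusted p = 0.00559 by limma; 0.0624 without shMina53 2). In the other direction Nrcam, a cell adhesion gene, rose from 2427 ± 208 to 3385 ± 179 (0.48; adjusted p = 0.0114 by limma). The call of Nrcam ended when shControl 2, shMina53 2 or shMina53 3 was left out (up to 0.109), with log2 differences of 0.51, 0.44 and 0.50. Plppr4, a paralog of Plppr1 named after its values were seen, was the other gene called higher. It rose from 59.2 ± 10.5 to 109 ± 11.6 scaled counts (0.88, SE 0.21, adjusted p = 0.016 by limma).

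**Figure D4:**
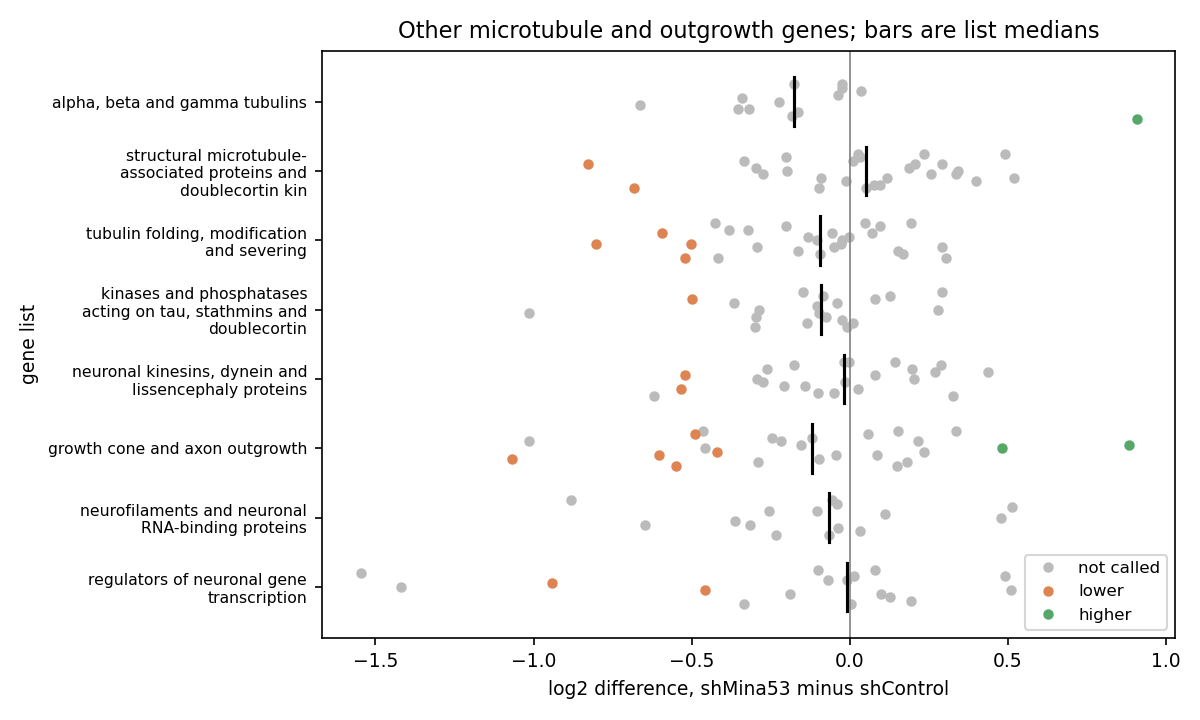
Log2 difference (shMina53 minus shControl) of each tested gene of the 8 lists of other microtubule and outgrowth genes. Orange points were called lower and green points higher by limma, grey points were not called, and black bars are list medians, which lie between -0.18 and 0.05.

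Neurofilament genes and neuronal RNA-binding proteins, which mark further maturation, had 0 of 15 called in either direction (limma; 2 lower and 1 higher at an unadjusted p under 0.05, 0 by edgeR and DESeq2), with a median of -0.07. Of 17 tested regulators of neuronal transcription 2 were lower and 0 higher (limma; 0 higher also at an unadjusted p under 0.05 and by edgeR and DESeq2), with a median of -0.01. Rcor2, a corepressor that works with REST, fell from 1583 ± 118 to 825 ± 78.3 scaled counts (-0.94, SE 0.11; adjusted p = 0.000212 by limma), in all 6 fits without 1 library. Myt1, a zinc finger factor of the neuronal and oligodendrocyte lineages, fell from 1023 ± 204 to 734 ± 30.6 (-0.46; adjusted p = 0.0481 by limma), and kept its call in 1 of 6 such fits, without shControl 3. Rest itself, named after its values were seen, was not called (1020.4 ± 67.1 and 953 ± 75.3; adjusted p = 0.647 by limma). Rcor1, a paralog of Rcor2 named in the same way, was not called either (1019 ± 73.8 and 1114 ± 73.9, log2 difference 0.13, adjusted p = 0.529 by limma).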

How the data were processed

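RNA from 6 libraries of mouse neural stem cells was sequenced, and the authors deposited 1 table that gives each library's signal per gene, the signal averaged over a group, and a p-value. The signal is reads per gene after division by a constant that differs between libraries: 100% of values were whole multiples of 1 step (tolerance 0.01 reads). The deposited p-value matched a DESeq2 test on the recovered reads (median absolute difference of log10 p 1.13e-06) and was not used otherwise. Per the submitters' processing notes, the build was mm10 and the tools were edgeR, DESeq2, StringTie 1.3.4d, HISAT2 2.0.4, CASAVA and UMI-tools, without roles; deduplication and strand are not given in the sources used here.

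The members and gene lists were chosen with earlier results of these data known. Scaled counts plus 1 were log2-transformed and fitted with limma-trend (limma 3.58.1, R 4.3.3; robust, no covariates) for the 21500 genes whose mean reached 1. Tests were two-sided, and p-values were adjusted over these genes by Benjamini-Hochberg. Named list genes are the called gene with the smallest p in each direction and up to 2 further called genes per list. Exon lengths and positions are from GENCODE M21. The trend on length was removed, as an alternative, with a lowess curve per library (span 0.3). edgeR 4.0.16 and DESeq2 1.42.0 on recovered reads, other pseudocounts, filters and scalings, a replicate block and each left-out library were further alternatives. The pipeline was tested on simulated data. No 2 libraries of a group were as alike as sampling noise allows.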

Additional observations from a re-analysis of the deposited data

How the results depend on the processing

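No log2 difference of the 10 genes or of the named list genes that was called changed sign under any alternative run. The values of Plppr4 under the alternatives are not given here. Of the members not called, Map1b changed sign without shControl 3 and with the length trend removed (-0.05 and -0.06), and Stmn2 without shControl 2 or shMina53 3 (0.24 and 0.18). Of 178 values for the 10 genes under the alternatives, 173 moved by less than 1 SD between replicates; the other 5 were Stmn3 (-0.53), Stmn4 (-1.40), Map2 (0.16), Tubb3 (-0.31) and Gap43 (-0.36), all with the length trend removed. The 7 genes lower in every shMina53 library were 6 with the length trend removed and 7 in all other settings; the count of genes higher was 1, and 1 to 2 when 1 library was left out.

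The plain limma variance model gave 14 genes lower and 18 higher, and 0 of the other microtubule genes lower and 0 higher (26 and 7 at an unadjusted p under 0.05). The replicate block gave 624 genes lower. Deviations of same-numbered libraries had correlations of -0.145, 0.107 and 0.02. With 3 libraries per group these values cannot settle whether the numbers pair the samples. With the block Tppp, Tbcb and Myt1 were not called (adjusted p = 0.0756, 0.0676 and 0.0782 by limma), nor were the members Tubb3 and Map2, so that 5 members were lower and 0 higher with it. Tppp and Myt1 were also not called with upper quartile scaling (0.056 and 0.0909 by limma). edgeR without a filter gave 1538 genes lower. With the length trend removed 5 of the other microtubule genes were higher. Leaving out 1 library gave 270 to 1401 genes lower and 212 to 1380 higher, and among the other microtubule genes 3 to 27 lower and 1 to 7 higher. Depth limits Stmn2, with 9 and 5 reads per group.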

Other observations

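Outside the microtubule genes, the 5 genes whose log2 levels over the 6 libraries were most like the mean profile of the 7 members with lower levels and enough reads were Eif4b, a translation initiation factor, Gsn, the actin-severing protein gelsolin, Sox10, the transcription factor of the oligodendrocyte lineage, Pde9a and Gnb4. The Pearson correlations were 0.996 to 0.999 over 6 libraries, among 10920 genes whose mean reached 100, and rest largely on the difference between the 2 groups that chose the profile. Eif4b stood at 6830.2, 6788 and 6788 scaled counts in the control libraries and 4543, 4524 and 4379 in the knockdown. With the group means removed, none of these 5 was among the 5 most alike. Those were Zfp35, Zbtb17, Gins1, Zfp811 and Camk1, with correlations of 0.99 to 0.994 over the same libraries, of which the calcium-dependent kinase gene Camk1 had a log2 difference of -0.90. As the highest of 10920 genes over 6 libraries, such correlations are not evidence of shared control, and they were not tested. The profile also averages members that deviated in opposite ways: the correlation of Stmn3 was -0.968 with Dcx and 0.831 with Gap43.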
